A study of Rattus norvegicus with 12 samples.

Results

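The genes of the synaptic vesicle release machinery were followed in the striatum of rats that had self-administered methamphetamine (MA). Members were chosen by symbol, as the numbered synaptotagmins (Syt), the synapsins (Syn1 to Syn3), syntaxins (Stx), syntaxin-binding proteins (Stxbp), vesicle-associated membrane proteins (Vamp), numbered Snap genes, Sv2a to Sv2c, every symbol beginning with Rab3, the Rims and Unc13 genes and the complexins (Cplx). Of 17337 genes in the count table, 84 symbols matched and 80 had a mean of at least 10 counts over the 12 libraries. Just inside that minimum lay Stx19 with a mean of 10.1 counts, Stx11 with 13.6 and Cplx3 with 48.0, and below it lay Rab38 with 9.50, Syt8 with 8.17, Syt15 with 7.67 and Cplx4 with 0.917. The prefix also took in 9 genes of Rab30 to Rab39, which belong to other branches of the Rab GTPase family, and Snap91, a clathrin adaptor whose symbol only resembles that of Snap25.

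Neurotransmitter leaves a nerve terminal when a synaptic vesicle fuses with the plasma membrane. Fusion is driven by SNARE proteins, with a vesicle SNARE (Vamp2) pairing with the plasma membrane SNAREs, a syntaxin and Snap25, and with syntaxin-binding proteins guiding the assembly. Rims, Unc13 proteins and Rab3 bring vesicles to the active zone and prime them, complexins hold the primed state, and calcium binding to synaptotagmin 1 triggers fusion. Tomosyns, the products of Stxbp5 and Stxbp5l, carry a SNARE-like motif and are known as inhibitors of this assembly. In the striatum the machinery serves the local projection neurons and interneurons, while the mRNA of incoming dopaminergic, cortical and thalamic terminals is made largely in cell bodies outside the tissue.

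Whole striatum of wild-type male Sprague–Dawley rats was profiled by mRNA sequencing in 3 groups of 4 rats, all labelled as treated with MA over 16 days of self-administration. MA12 rats had 12 h and MA24 rats 24 h of abstinence after the last session, and the remaining 4 rats were labelled non-addicted, a class whose criterion the sources used here do not give and for which they give no abstinence time. No library used here is labelled as saline, so by the labels no comparison below is against a drug-free animal. Whether the non-addicted rats were taken with or without abstinence is not known. All 4 MA24 rats and 2 of the 4 MA12 rats (4N and 7N) carried a number ending in N, and no non-addicted rat did. What the N stands for is not given, and 12 h against 24 h and this numbering are partly confounded. The rats were kept under a 12 h light and dark cycle, and the clock time of collection is not given. With sessions at a like hour, MA12 and MA24 rats would be taken at different times of day. Hours of abstinence and time of day therefore cannot be told apart in this design.

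Library totals ran from 17908962 to 23850284 counts, and the 80 members held 0.926 to 1.05% of them. Replicates were separate libraries. The chi-square per degree of freedom between their counts was 9.76 to 28.2 over the 18 within-group pairs. It would lie near 1 for a library sequenced a second time. Of markers for the striatal projection neurons, 12 of 12 were in the table and none was at 0, with a summed level of 16006 to 20850 CPM (counts scaled to the TMM-adjusted library size) over the 12 libraries. The summed level of 9 of 10 cortex markers was 245 to 279 CPM in MA12 and 250 to 305 CPM in MA24. For 6 of 7 thalamus markers it was 42.3 to 74.8 CPM in MA12 and 33.6 to 40.4 CPM in MA24, so these groups did not overlap, and in non-addicted rats it was 33.2 to 83.7 CPM. Of 8 hypothalamus markers, Pmch and Sim1 were at 0, and the 7 oligodendrocyte markers summed to 12293 to 21918 CPM in MA12, 18228 to 21458 CPM in MA24 and 11781 to 17402 CPM in non-addicted rats. For 5 of 6 endothelial markers the sum was 387 to 504 CPM in MA12, 460 to 508 CPM in MA24 and 286 to 403 CPM in non-addicted rats, so that on both lists non-addicted and MA24 rats did not overlap. The 6 choroid plexus markers summed to low levels, 6.19 to 24.5 CPM in non-addicted rats, 2.73 to 8.31 CPM in MA12 and 3.27 to 4.78 CPM in MA24. There too non-addicted and MA24 rats did not overlap, but with the non-addicted rats higher. The part of these tissue differences in the results below was not tested.

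To find which release genes differed between 12 h and 24 h of abstinence, MA24 was compared with MA12. Of the 67 members left after the filter on low variance, 4 were lower in MA24 and none was higher, at a Benjamini-Hochberg adjusted p below 0.05 over the 10754 genes given to edgeR's quasi-likelihood test. Over all genes the same call was made for 3.32% in the lower and 1.84% in the higher direction, against 5.97% and 0% of the members tested. For the higher direction, 6 of 80 members had an unadjusted p below 0.05, and DESeq2 and edgeR's likelihood ratio test also called 0 members higher. The 4 that fell were Stxbp5l and Stxbp5, which encode both tomosyns, Sv2c, the form of vesicle glycoprotein SV2 known from the basal ganglia, and Syt6, a calcium-binding synaptotagmin. With a fold change (FC) of at least 1.5 also required, which is called a differentially expressed gene (DEG) below, Stxbp5l and Sv2c remained, against 1.72% of all genes tested. Of the cell type and region markers, 1 each was called lower on 3 lists and none was called higher. These were Prkcd (thalamus, 5 of 5 with a value lower), Nos1 (parvalbumin and somatostatin interneurons, 4 of 5) and Pdyn (projection neurons, 6 of 12). Their part in the members' values was not tested. Because the tissue is a bulk extract, fewer cells of a type and less RNA per cell cannot be told apart in any of these values.

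**Figure D1:**
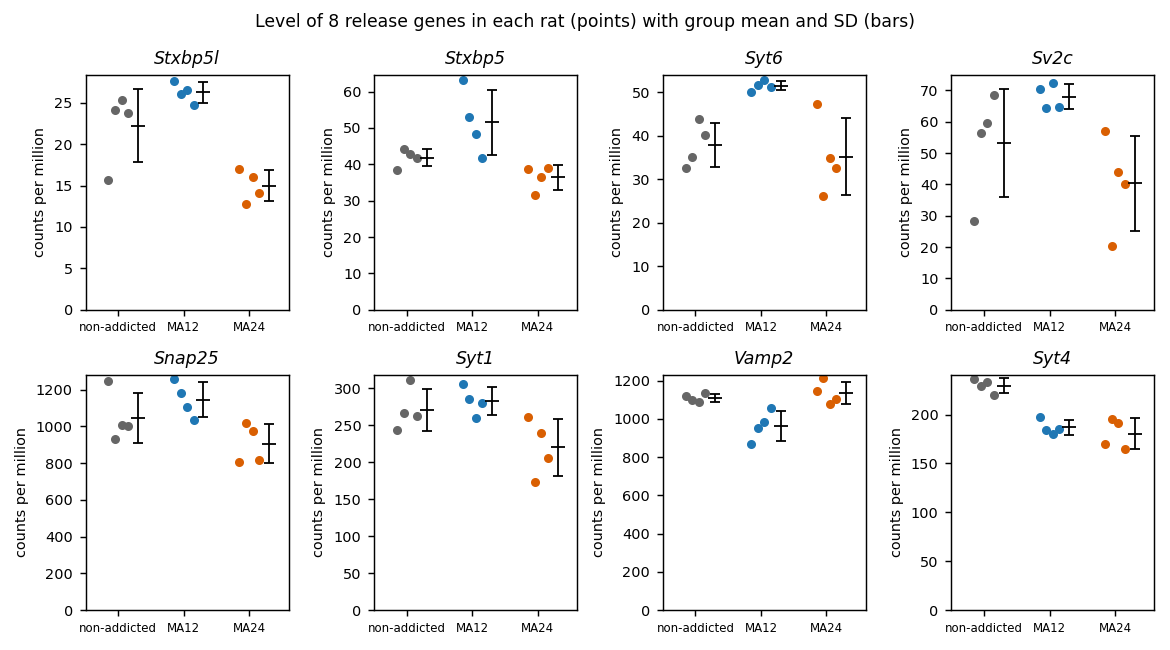
Level of 8 release genes in TMM-scaled CPM, with 1 point for each of 4 rats per group and the group mean and SD as bars. All MA24 points of Stxbp5l, Stxbp5, Syt6, Sv2c and Snap25 lie below all MA12 points, those of Vamp2 lie above, and Syt4 is highest in the non-addicted rats.

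Stxbp5l was the member with the strongest call. Its level was 27.7, 26.0, 26.6 and 24.7 CPM in MA12 rats 21, 31, 4N and 7N, and 17.0, 12.8, 16.0 and 14.2 CPM in MA24 rats 9N, 14N, 15N and 16N. The 2 groups were far apart, with the highest MA24 rat well under the lowest MA12 rat. The log2 FC was -0.81 ± 0.12 (SE, n = 4 per group; adjusted p = 0.00471, edgeR), or 0.571-fold. In non-addicted rats 9, 11, 12 and 13 it was 15.7, 24.1, 25.4 and 23.8 CPM, so rat 12 lay within the MA12 range, rats 11 and 13 just below it and rat 9 among the MA24 rats. Of the 4 called members it alone passed under all 19 alternative settings, with a log2 FC between -0.88 and -0.55 and an adjusted p of at most 0.0338.

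Stxbp5, the paralog that encodes tomosyn-1, had 63.1, 53.0, 48.3 and 41.6 CPM in MA12 rats 21, 31, 4N and 7N. In MA24 it had 38.8, 31.5, 36.6 and 39.0 CPM, and in non-addicted rats 38.6, 44.2, 42.7 and 41.8 CPM. The MA12 rats spread widely, from close to the other groups in 7N to well above them in 21. The log2 FC was -0.50 ± 0.12 (SE; adjusted p = 0.0244, edgeR). The call was lost without MA12 rat 21 (log2 FC -0.38, adjusted p = 0.101) and, more narrowly, without MA12 rat 31 (adjusted p = 0.0523), MA24 rat 14N (0.0608) or MA24 rat 15N (0.0544). Among rats numbered with N alone the log2 FC was -0.29 and the adjusted p 0.364, and over the 19 alternatives, of which 12 kept the call, the adjusted p ranged from 0.00522 to 0.364.

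Sv2c was measured at 70.6, 64.4, 72.4 and 64.7 CPM in MA12 and at 57.0, 20.3, 43.9 and 40.2 CPM in MA24. MA12 rats were tightly grouped, MA24 rats were not, and 14N was by far the lowest. The log2 FC was -0.75 ± 0.19 (SE; adjusted p = 0.0279, edgeR), and without 14N it was -0.53 (adjusted p = 0.0214). The call was lost without MA12 rat 21 (adjusted p = 0.0571) or MA24 rat 16N (0.0656), with DESeq2 (0.0969) and with the rat numbering as a covariate (0.126). It was also lost without the variance filter (adjusted p = 0.0601, edgeR), with all 3 groups in the fit and with variance ranked without TMM. Removal of the gene span trend, described below, lost it as well. Over the 19 alternatives 11 kept it and the adjusted p ranged from 0.00323 to 0.126. Non-addicted rats 11, 12 and 13 had 56.4, 59.5 and 68.4 CPM, and rat 9 had 28.3 CPM. Rats 9 and 11 thus lay within the MA24 range, rat 13 within the MA12 range and rat 12 between them.

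For Syt6 the level was 50.2, 51.8, 52.8 and 51.3 CPM in MA12, 47.4, 26.1, 34.9 and 32.5 CPM in MA24 and 32.6, 35.1, 43.9 and 40.1 CPM in non-addicted rats. MA12 therefore stood above every rat of both other groups. The log2 FC of MA24 over MA12 was -0.55 ± 0.14 (SE; adjusted p = 0.0266, edgeR). It lost its call without MA24 rat 14N (log2 FC -0.43, adjusted p = 0.0631), 15N (0.0612) or 16N (0.0705), among rats numbered with N alone (0.0870) and with that numbering as a covariate (0.125). Over the 19 alternatives, of which 13 kept the call, its adjusted p ranged from 0.00192 to 0.125.

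The promoter windows of these 4 genes are shown because they are the members whose level passed the test, and they allow the reader to compare their base composition. Each runs from 250 bases before to 50 bases after the annotated start, taken from RefSeq on build GRCr8, and lies at chr11:76839852-76840151 (plus strand) for Stxbp5l, chr1:6155479-6155778 (minus strand) for Stxbp5, chr2:193781226-193781525 (plus strand) for Syt6 and chr2:29163119-29163418 (minus strand) for Sv2c. Capitals mark a match to any of 3 searched motifs on either strand, namely the cAMP response element TGACGTCA, the E-box CACGTG, and the Egr-type sites GCGTGGGCG or GCGGGGGCG.
Stxbp5l: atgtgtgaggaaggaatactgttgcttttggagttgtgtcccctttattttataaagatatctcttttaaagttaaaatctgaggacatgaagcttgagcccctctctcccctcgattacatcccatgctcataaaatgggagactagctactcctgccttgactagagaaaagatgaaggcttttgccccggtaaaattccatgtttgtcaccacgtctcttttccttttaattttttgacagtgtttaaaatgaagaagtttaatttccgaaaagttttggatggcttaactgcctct
Stxbp5: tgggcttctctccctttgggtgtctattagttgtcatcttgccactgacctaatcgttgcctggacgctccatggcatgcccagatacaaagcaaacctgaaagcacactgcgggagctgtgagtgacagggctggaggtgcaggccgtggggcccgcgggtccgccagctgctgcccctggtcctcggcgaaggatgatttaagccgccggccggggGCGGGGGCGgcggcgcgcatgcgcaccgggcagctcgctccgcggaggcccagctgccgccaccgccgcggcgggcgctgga
Syt6: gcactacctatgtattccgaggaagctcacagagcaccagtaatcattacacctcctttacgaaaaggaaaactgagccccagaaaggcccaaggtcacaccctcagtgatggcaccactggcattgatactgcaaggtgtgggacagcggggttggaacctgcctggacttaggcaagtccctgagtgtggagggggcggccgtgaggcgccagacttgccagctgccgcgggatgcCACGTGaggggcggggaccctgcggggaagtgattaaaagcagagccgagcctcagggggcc
Sv2c: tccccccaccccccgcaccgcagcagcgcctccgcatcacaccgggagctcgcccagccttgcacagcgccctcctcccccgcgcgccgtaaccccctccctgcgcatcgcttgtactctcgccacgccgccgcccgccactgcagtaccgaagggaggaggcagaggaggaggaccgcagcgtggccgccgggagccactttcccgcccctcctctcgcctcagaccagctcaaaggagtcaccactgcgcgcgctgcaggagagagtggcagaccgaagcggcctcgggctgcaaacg
The window of Stxbp5l was 38.7% G and C, against 68.0% in Stxbp5, 59.7% in Syt6 and 71.7% in Sv2c, and a median of 51.7% over 33469 promoters. Stxbp5 held an Egr-type match and Syt6 an E-box match, and the windows of Stxbp5l and Sv2c held none of the motifs. In the Stxbp5l window an ATG, with a reading frame open to the window's end, begins within a few bases of the annotated start. That window may therefore not be the gene's promoter, and its base composition and lack of motifs describe the annotated window only. Whether transcription begins there was not tested. Over the 63 members with a window, 12.7% held an Egr-type match, 11.1% an E-box and 3.17% a cAMP response element, against 3.20%, 6.42% and 1.83% of all windows, and the members' median content of G and C was 62.7%. A match here is a description of letters and carries no statement on the binding of a factor.

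More members were lower than higher, and the counts that follow include the 4 called members. Without the variance filter 20 of 80 members (25.0%) had an unadjusted p below 0.05 and a lower level in MA24, beside 12.2% of 12652 genes, and 6 (7.50%) a higher level, beside 10.7%. All 4 MA24 rats lay below all 4 MA12 rats for 14 members (17.5%), beside 7.58% of genes, and above them for 3 (3.75%), beside 6.82%. With the variance filter 21 of 67 members were lower at an unadjusted p below 0.05. Without MA24 rat 14N 12 of 65 were, and 10 of 67 were when the trend with gene span described below was removed. The shares of all genes at an unadjusted p were not computed for these settings, so these counts do not show whether an excess of members remains. The median log2 FC over the 80 members was -0.09 with 50 lower, while over all genes it was 0.00 with 50.8% lower. Without Rab30 to Rab39 the median over 71 members was -0.08 with 43 lower, and the 4 calls were the same genes.

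**Figure D2:**
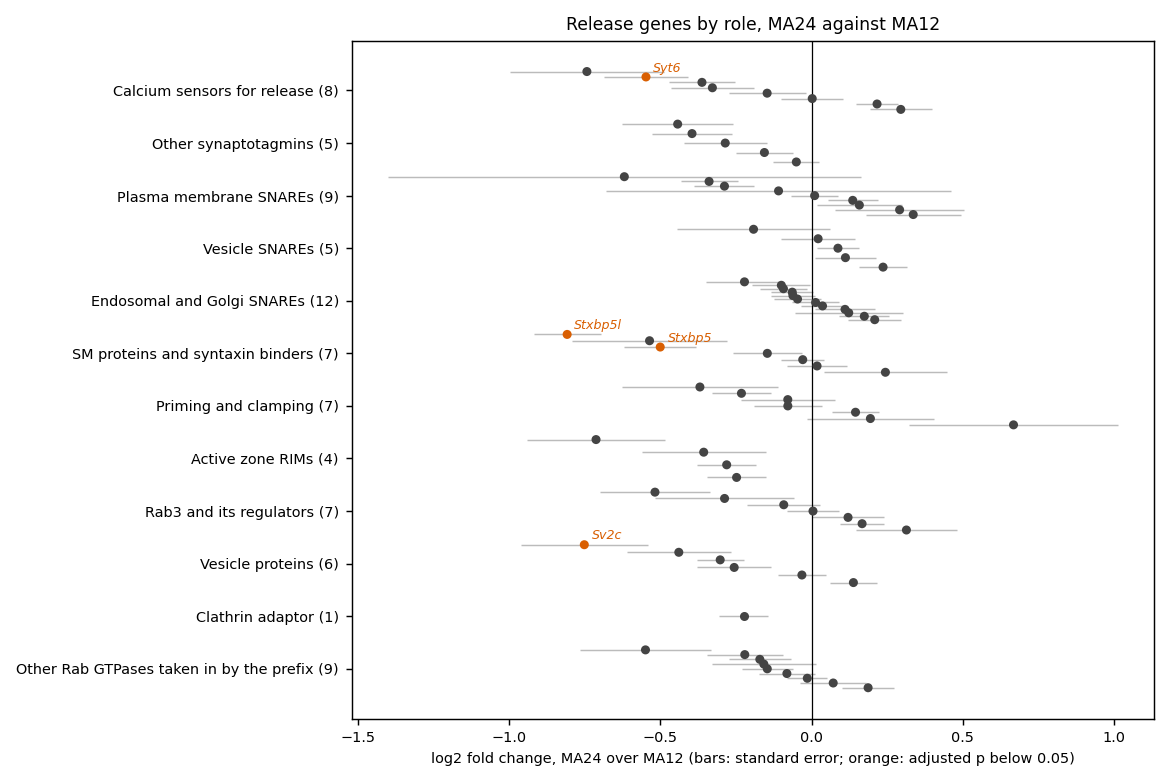
Log2 fold change of MA24 over MA12 for each of the 80 members (points) with its standard error (bars), grouped by role with the number of genes in parentheses. Orange points are the 4 members with an adjusted p below 0.05, and all members of the Rims and of the other synaptotagmins lie left of 0.

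Among the calcium sensors, Syt1, the fast trigger of release, had 305, 286, 259 and 281 CPM in MA12 and 262, 173, 239 and 206 CPM in MA24. These groups overlapped by a single pair of rats, and the log2 FC was -0.36 ± 0.12 (SE; adjusted p = 0.0720, edgeR). Syt10 (log2 FC -0.74, adjusted p = 0.0666) and Syt2 (-0.33, adjusted p = 0.153) also had negative values. Syt5 went the other way at 325, 360, 301 and 393 CPM in MA12 against 408, 498, 374 and 410 CPM in MA24 (log2 FC 0.30 ± 0.11, adjusted p = 0.118). Syt3 was at 83.9 to 88.0 CPM in MA12 and at 91.6 to 104 CPM in MA24, without overlap (log2 FC 0.22, adjusted p = 0.160). Syt7, a slow sensor, had a log2 FC of 0.00 with a 95% interval of -0.27 to 0.27. The 5 other synaptotagmins were all lower, between -0.44 for Syt17 and -0.05 for Syt4, with a median of -0.29 and no call by edgeR's quasi-likelihood test, while its likelihood ratio test called Syt11.

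Plasma membrane SNAREs did not share a direction. Snap25 had 1258, 1181, 1104 and 1036 CPM in MA12 and 809, 1018, 976 and 819 CPM in MA24, so that every MA24 rat was below every MA12 rat. Its log2 FC was -0.34 ± 0.11 (SE), which missed the threshold (adjusted p = 0.0659, edgeR) and passed with DESeq2 and with edgeR's likelihood ratio test. The syntaxin Stx1a was at 39.6 to 47.3 CPM in MA12 and 43.7 to 49.7 CPM in MA24 (log2 FC 0.14, adjusted p = 0.413), with overlap.

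Vesicle SNAREs were on the higher side in 4 of 5 cases. Vamp2, the main partner of Snap25, had 867, 950, 981 and 1056 CPM in MA12 and 1146, 1213, 1078 and 1103 CPM in MA24. All MA24 rats lay above all MA12 rats, with a log2 FC of 0.24 ± 0.10 (SE; adjusted p = 0.147, edgeR). Snap25 and Vamp2 thus had opposite signs, and the ratio of Snap25 to Vamp2 counts within a library, which no scaling affects, was 0.982 to 1.45 in MA12, 0.706 to 0.905 in MA24 and 0.849 to 1.11 in non-addicted rats. That pair was chosen after its values were seen and its ratio was not tested. Of the 12 endosomal and Golgi SNAREs, 6 were higher and 6 lower, within -0.22 for Vamp7 and 0.21 for Stx16.

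Of the syntaxin binders besides the tomosyns, none was called. Stxbp4 was at 2.82 to 5.81 CPM in MA12 and 2.75 to 3.65 CPM in MA24, with overlap (log2 FC -0.53 ± 0.26, SE; adjusted p = 0.221, edgeR). Stxbp6, also known as amisyn, had a log2 FC of -0.15 (adjusted p = 0.515), Stxbp3 of 0.02 (adjusted p = 0.937) and Stxbp2 of 0.25 (adjusted p = 0.480), and the latter pair belongs to the family of Sec1 and Munc18-like proteins that act in membrane fusion of many cell types.

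The 4 Rims, scaffolds that tether vesicles and calcium channels at the active zone, were all lower, with a median log2 FC of -0.32 and no call by edgeR's quasi-likelihood test, while DESeq2 and edgeR's likelihood ratio test called Rims3. Rims1 was at 120, 123, 128 and 140 CPM in MA12 and at 116, 84.5, 112 and 108 CPM in MA24, a log2 FC of -0.28 ± 0.11 (SE; adjusted p = 0.125, edgeR). Rims3 had 10.01, 9.40, 7.85 and 6.95 CPM in MA12 and 6.37, 3.05, 5.40 and 6.07 CPM in MA24 (log2 FC -0.71 ± 0.22, adjusted p = 0.0679). Neither gene's groups overlapped, nor did those of Rims2, while Rims4 overlapped. The priming factor Unc13a had a log2 FC of -0.23 (adjusted p = 0.203), Cplx1 of 0.15 (adjusted p = 0.371) and Cplx2 of -0.08 with a 95% interval of -0.44 to 0.28.

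Rab3a, the main Rab of synaptic vesicles, was at 618 to 701 CPM in MA12 and 694 to 773 CPM in MA24 (log2 FC 0.17, adjusted p = 0.282). Its rarer paralog Rab3c was at 17.4 to 20.4 CPM in MA12 and 8.43 to 18.2 CPM in MA24 (log2 FC -0.52, adjusted p = 0.0843). Among vesicle proteins other than Sv2c, Sv2b was at 179 to 208 CPM in MA12 and 143 to 168 CPM in MA24 without overlap (log2 FC -0.30, adjusted p = 0.0702), and it passed when the variance filter was left out. Sv2a, the widespread form, had a log2 FC of -0.03 with a 95% interval of -0.22 to 0.16 in the fit without the variance filter, since that filter had removed it. Synapsins tether vesicles to one another, and the values were 0.14 for Syn1, -0.26 for Syn2 and -0.44 for Syn3, none of them called.

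**Figure D3:**
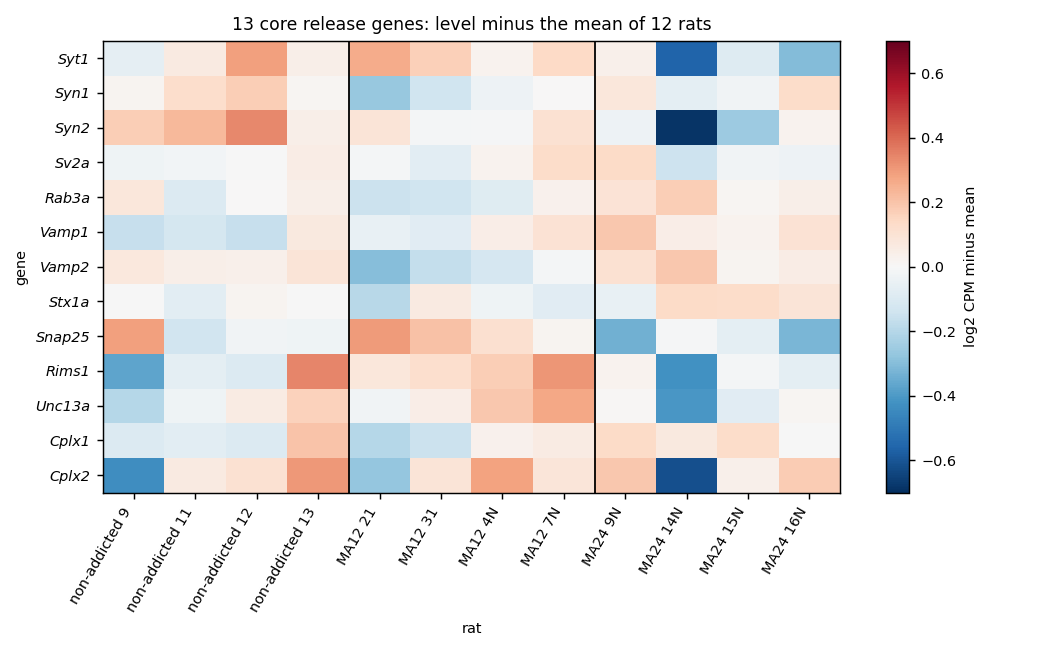
Level of 13 core release genes in each of the 12 rats as log2 CPM minus the gene's mean over all rats, with black lines between groups. MA24 rat 14N has the lowest value of the 12 rats for Syt1, Syn2, Sv2a, Rims1, Unc13a and Cplx2, and the highest for Rab3a, Vamp2 and Stx1a.

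The 13 genes shown of the core fast-release set had 6 positive and 7 negative values and a median log2 FC of -0.03, and none passed the adjusted threshold with edgeR's quasi-likelihood test, while DESeq2 and the likelihood ratio test called Snap25 and Syt1. A single rat, 14N of MA24, had the lowest level of all 12 rats for 28 of the 80 members and the highest for 13. Leaving it out left Stxbp5l and Sv2c past the threshold, 2 members in place of 4, while calls over all genes went from 555 to 245. Without MA12 rat 21, and without MA24 rat 15N or 16N, 2 members also passed, and without MA24 rat 9N 10 passed, all of them lower, with 809 calls over all genes.

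The members' values moved with gene length. RefSeq gene spans on GRCr8, from the first to the last annotated base and thus with introns, were available for all 80 members and for 92.8% of the genes tested. Across the 80 members Spearman's rho of the log2 FC with the span was -0.46, and across 11739 genes it was -0.36, as a description over genes that are not independent. Of the 20 members with the longest span 18 were lower in MA24 (median log2 FC -0.27), and of the 20 with the shortest 7 were (median 0.08). Stxbp5l spans 329 kb, Sv2c 196 kb, Stxbp5 153 kb and Syt6 59.7 kb, against 4.24 kb for Vamp2, 4.11 kb for Rab3a and a median of 41.0 kb over the members and 24.0 kb over all genes. Over all genes the median span was 109 kb for those called lower and 14.0 kb for those called higher.

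The same relation could be read in single rats. Taking each rat's deviation from the mean of the 12, rho with the span over the 80 members was 0.12 to 0.44 in the 4 MA12 rats and -0.54 to -0.14 in the 4 MA24 rats, with 14N the most negative. Non-addicted rats 11, 12 and 13 had 0.20 to 0.26, and rat 9 had -0.21. When each library's trend with gene span was taken out before the fit, Stxbp5l was the 1 member still called in MA24 against MA12 (log2 FC -0.55, adjusted p = 0.0168, edgeR) and no member was a DEG. Stxbp5 then had -0.31 (adjusted p = 0.139), Sv2c -0.55 (adjusted p = 0.0922) and Syt6 -0.45 (adjusted p = 0.0675). What gives the libraries their different relation with span was not tested.

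**Figure D4:**
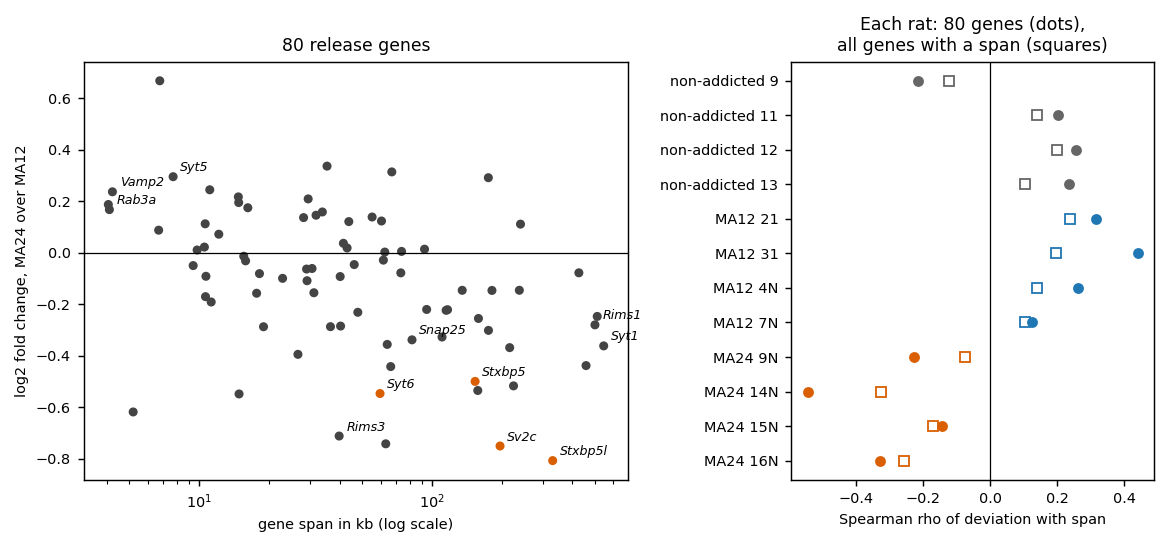
Left, log2 fold change of MA24 over MA12 against gene span in kb on a log axis for the 80 members, with the 4 called members in orange. Right, Spearman's rho between span and each rat's deviation from the mean of 12 rats, over the members (dots) and over all genes with a span (squares), which is positive in the 4 MA12 rats and negative in the 4 MA24 rats.

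Other genes of the same pathway were counted from fixed lists. In MA24 against MA12, of 20 active zone scaffold genes tested, 6 fell (Cacnb4, Cask, Erc1, Erc2, Pclo and Ppfia2) and 1, Lin7b, rose, where all genes tested had 3.32% lower and 1.84% higher. The DEGs among them were Erc1 (log2 FC -0.79, adjusted p = 0.0195), Cacnb4 (-0.65, adjusted p = 0.0110) and Erc2 (-0.59, adjusted p = 0.0301), 2 scaffolds of the ELKS family and a calcium channel subunit. Erc1 was at 16.0 to 20.4 CPM in MA12 and 6.21 to 12.6 CPM in MA24. Of 21 endocytosis genes tested, Fcho1, which starts clathrin pits, rose as a DEG (114 to 157 CPM in MA12, 180 to 257 CPM in MA24, log2 FC 0.67, adjusted p = 0.00904) and Dnm3 fell. Of 22 genes of vesicle membrane and SNARE recycling tested, Cadps and Napb fell and Sncb rose. For the genes of these lists, the span, the removal of the span trend and the leaving out of single rats were not examined. Over all genes, removing that trend took the calls from 555 to 242, and leaving out MA24 rat 14N took them to 245.

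Non-addicted rats were then set against each abstinence group. These comparisons share the non-addicted rats, and each also shares its other group with the comparison above. The values are therefore given side by side, and no overlap between them was tested. Against MA12, 0 of 67 members passed the adjusted threshold with edgeR's quasi-likelihood test, beside 0.27% of all genes. DESeq2 called 2 members (Syt4 and Syt6) and edgeR's likelihood ratio test 1 (Syt6), beside 165 and 164 of 10758 genes. An unadjusted p below 0.05 was seen for 8 of 80 members (10%), beside 12% of genes, and the groups did not overlap for 7 (8.75%), beside 6.66% of genes. Against MA24, 0 of 66 members passed, beside 0.549%, with 2 called by DESeq2 and 2 by the likelihood ratio test (Stxbp5l and Syt4 in both). Over all 10744 genes DESeq2 called 225 and the likelihood ratio test 271. Here 16 members (20%) had an unadjusted p below 0.05, beside 17.6% of genes, and 6 (7.50%) did not overlap, beside 9.43%. The oligodendrocyte and endothelial markers that were lower in non-addicted rats include Mbp, Cldn5 and Kdr, which passed against MA24, and Kdr also against MA12. The 5 choroid plexus markers with a value were all higher in non-addicted rats than in MA24, and none passed. The part of these markers in the members' values was not tested.

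Syt4, a synaptotagmin known as inducible by activity, and Unc13d were the members for which the non-addicted rats overlapped with neither abstinence group. Both comparisons use the same non-addicted rats, and the share of all genes with this trait was not computed. It is therefore a description of these members and not a result about the list. Syt4 had 237, 229, 233 and 220 CPM in non-addicted rats. In MA12 it had 197, 185, 180 and 185 CPM, and in MA24 170, 196, 192 and 165 CPM. Every non-addicted rat was above all 8 rats of the abstinence groups. The log2 FC of non-addicted rats was 0.29 ± 0.09 (SE) over MA12 (adjusted p = 0.168, edgeR) and 0.34 ± 0.09 (SE) over MA24 (adjusted p = 0.0927). Unc13d, a priming factor best known from cells outside the brain, was lower, at 2.13 to 3.26 CPM in non-addicted rats, 3.33 to 3.91 CPM in MA12 and 3.66 to 4.81 CPM in MA24 (log2 FC -0.29, adjusted p = 0.689, and -0.48, adjusted p = 0.313). Neither gene passed in either comparison. The gene span of Syt4 is 9.41 kb, shorter than that of most members.

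Other members stood with one abstinence group or the other. Vamp2 was at 1091 to 1135 CPM in non-addicted rats, inside the MA24 range and above all MA12 rats (log2 FC 0.20 over MA12, adjusted p = 0.416, and -0.03 over MA24, adjusted p = 0.840). Syn1 was at 312 to 348 CPM, above the 257 to 309 CPM of MA12 (log2 FC 0.19, adjusted p = 0.457). Syt6 was below MA12 in all 4 rats (log2 FC -0.45, adjusted p = 0.0798), as was Rab3c at 10.9 to 17.3 CPM (log2 FC -0.47, adjusted p = 0.159). Against MA24, Syn2 was at 178 to 218 CPM in non-addicted rats and 107 to 176 CPM in MA24 (log2 FC 0.40, adjusted p = 0.136), and Syn3 at 7.09 to 10.5 CPM and 5.12 to 6.81 CPM (log2 FC 0.53, adjusted p = 0.163). Neither synapsin overlapped.

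Stxbp5l was 0.56 ± 0.15 (SE) higher on the log2 scale in non-addicted rats than in MA24 without passing (adjusted p = 0.0902, edgeR), and its log2 FC over MA12 was -0.24 (adjusted p = 0.485). Without non-addicted rat 9, whose relation with gene span was negative, it passed and was a DEG against MA24 (log2 FC 0.70, adjusted p = 0.0226), the 1 member to do so. Without the filter on low counts it passed as well (adjusted p = 0.0470), and over its 17 alternatives the adjusted p ranged from 0.0226 to 0.289. Across the 80 members the median log2 FC of non-addicted rats was -0.06 over MA12 and 0.05 over MA24, beside -0.01 and 0.00 over all genes. Spearman's rho with gene span was -0.18 over MA12 and 0.50 over MA24 across the members, beside -0.13 and 0.31 over all genes with a span. Of the 20 longest members 15 had a negative value over MA12 and 2 a negative value over MA24.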

How the data were processed

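Rat striatal mRNA (TRIzol extraction, TruSeq RNA v2 libraries) from 12 rats was used. The submitters' processing notes name cutadapt 1.18, STAR 2.7.0e, featureCounts, HTSeq 0.12.4 and build rn6, and the authors deposited whole-number counts per gene, not normalized. The counting options for strand and for reads with several positions are not given in the sources used here, and reads from a gene and an overlapping antisense gene cannot be told apart. Members and gene lists were chosen with earlier results of these data known.

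Genes with a mean count above 4 in the 8 libraries of a comparison passed, and a variance filter on TMM-scaled log2 CPM (prior count 2) took out the lowest 15%. edgeR 4.0.16 (R 4.3.3) with TMM factors and the quasi-likelihood test was fitted on each pair of groups, with Benjamini-Hochberg adjustment over all genes. Values for members that the variance filter removed, and all medians, came from the fit without it. Standard errors were derived from the F statistic, and intervals used 6 degrees of freedom. Levels are TMM-scaled CPM and are not comparable between genes, since no transcript length was used. DESeq2 1.42.0, edgeR's likelihood ratio test, other filters and scalings, the rat numbering and leaving out each rat were alternatives, and the removal of the gene span trend, variance ranking without TMM and members without Rab30 to Rab39 were added after seeing the data. The fits were checked on simulated data. P-values set the difference between group means against the spread among rats within the groups, which edgeR moderates across genes.

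Genes named were member DEGs, the 5 higher and 5 lower members with the smallest unadjusted p in each comparison, 13 genes of a core set, and DEGs of the other lists. Some results are not reported here. Other genes named were added after their values were seen.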

Additional observations from a re-analysis of the deposited data

Results flagged for a closer look

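Within each group of 4 rats, the levels of the 30 named members were examined for a rat far from the other 3 on the log2 CPM scale, by the gap to the nearest rat over the whole range (Dixon's ratio). Of 90 groups of values 3 exceeded its 95% critical value, and chance gives about 1 in 20. Stxbp5l was far lower in non-addicted rat 9 than in the other 3 (ratio 0.864), with 15.7 CPM against 23.8 to 25.4 CPM. Cplx1 was highest in non-addicted rat 13 (ratio 0.926), at 950 CPM against 776 to 787 CPM. Syt3 was lowest in MA24 rat 15N (ratio 0.922), at 91.6 CPM against 103 to 104 CPM.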

How the results depend on the processing

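In MA24 against MA12 the 4 calls (2 DEGs) were all lower, and so was every member called under any alternative. The count of calls was 8 with DESeq2, 10 with edgeR's likelihood ratio test (4 DEGs), 2 among rats numbered with N, 1 with that numbering as a covariate (1 DEG), 1 with the gene span trend removed (0 DEGs) and 2 to 10 when each rat was left out (1 to 6 DEGs). DEGs numbered 1 without the variance filter, with all 3 groups in the fit and with variance ranked without TMM. Non-addicted against MA12 went from 0 calls to 2 (DESeq2), 1 (likelihood ratio test) and 1 (no low-count filter). Against MA24 the calls went from 0 to 2, 2 and 1 under those settings, to 1 without non-addicted rat 9 (0 to 1 over all rats left out, with 0 to 1 DEGs) and to 1 with the span trend removed (Syt4). Under the same settings, calls over all genes against MA12 went from 29 to 165, 164 and 84. Against MA24 they went from 59 to 225, 271 and 180, to 113 without non-addicted rat 9 and to 49 with the span trend removed. The median over members for non-addicted against MA12 was -0.0306 among rats numbered without N, and -0.0648 to -0.0293 when each rat was left out. Of uncalled members, Rims1 had a log2 FC of 0.00891 and Cplx2 of 0.0371 with the span trend removed in MA24 against MA12, and leaving out each rat gave Cplx2 -0.168 to 0.0727, with positive values when MA12 rat 4N (0.00294) or MA24 rat 14N was dropped. The cause of these shifts was not tested. Over all genes the 555 calls in MA24 against MA12 moved as well, to 917 with DESeq2, 899 with the likelihood ratio test, 131 among rats numbered with N, 49 with the numbering as a covariate, 242 with the span trend removed and 215 to 809 when each rat was left out. No paired analysis was possible because the groups share no rat numbers. Levels near the count minimum, such as those of Stx19 and Stx11, carried standard errors of 0.77 and 0.58 on the log2 scale. All but large differences could be missed there, and the power to detect a difference was not computed.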
